A study of Mus musculus with 9 samples.

Results

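Integrins and the proteins of the focal adhesion plaque were followed in MC3T3-E1 cells, an established preosteoblast line from the calvaria of newborn C57BL/6 mice. The genes were taken by name. They are every gene whose single symbol on the array begins with Itga or Itgb and a digit, *Itgav*, and a fixed set of plaque genes, which together gave 41 genes of the 18193 genes that have a probe set of their own. They comprise 12 integrin alpha subunits, 8 beta subunits, 17 plaque proteins and 4 genes that carry an Itgb name without being typical subunits. *Ptk2*, which encodes focal adhesion kinase, belongs to the set by name and was not analysed here, since the annotation used pairs no probe set with it. Each gene is represented by the probe set with the highest mean over the 9 arrays.

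All cells were kept for 14 days in medium with ascorbic acid and β-glycerophosphate, trypsinized, seeded again and left for 24 h to attach. One group then received low-intensity pulsed ultrasound (LIPUS) at 30 mW/cm2 and 1.5 MHz for 20 min through the dish bottom, with RNA taken 6 h later. A further group received the same exposure and was harvested after 24 h. The control group was mock-treated, and the labels do not give its culture time, so that time in culture and LIPUS cannot be told apart in a difference from the control. Each group has 3 arrays, numbered 1 to 3, and the study describes them as coming from 3 experiments. The labels do not say whether these were separate cultures. Except where the array number is left out, the p-values measure the spread that remains after differences between array numbers are removed.

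Integrins are pairs of an alpha and a beta chain that span the membrane. The alpha chain largely sets the ligand (fibronectin and other proteins with an RGD motif, collagens or laminins), and the beta tail binds talin and kindlin inside the cell. Around these tails a plaque assembles that joins the receptor to actin and carries kinases and scaffolds, and in osteoblasts this is the main contact with bone matrix and a place where mechanical load is sensed.

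The values are log2 signals that the authors derived from the scanned arrays by RMA. This method corrects background, includes a step to equalize the arrays and summarizes the probes of a set. The deposited signals did not share a common distribution, since array medians ran from 4.89 (control, replicate 1) to 5.15 (replicate 2). A difference of signals on the log2 scale between arrays of the same number is called a log2 difference below. Each comparison was fitted across 45037 probe sets by limma with the array number as a block, and a gene is said to have risen or fallen when its Benjamini-Hochberg adjusted p was under 0.05. The arrays of the 3 numbers were not alike. In replicate 1, 1.26% of probe sets had exactly the same value in control and 24 h arrays, against 48.4% in replicate 2 and 31.9% in replicate 3. For the adhesion genes these exact ties were 0, 15 and 7 of 41. The 6 h array of replicate 3 stood apart, because 88.3% of its values lay from the control to the 24 h value of that replicate, against 38.1% in replicate 1 and 71.2% in replicate 2. Counts are therefore also given without it and without replicate 3.

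At 24 h after LIPUS most integrin and focal adhesion transcripts lay close to the mock control, as did most genes. The median absolute log2 difference was 0.076 over the 41 genes, beside 0.062 over all 18193 genes. A small number of alpha chains changed. *Itga6*, the alpha chain of laminin receptors, fell to 0.754-fold of the control level, a log2 difference of -0.41 (standard error 0.03). *Itga8*, the alpha chain of the receptor for nephronectin and fibronectin, rose 1.31-fold, a log2 difference of 0.39 (standard error 0.03). *Zyx*, which encodes the actin-linked plaque protein zyxin, rose 1.19-fold, and *Itga1*, the alpha chain of a collagen receptor, rose 1.13-fold. In all, 3 genes rose and 1 fell of 41, which is 9.76%, beside 4.14% of all 18193 genes (2.57% higher and 1.57% lower). Of the 41 genes, 33 lay above the median signal on all 9 arrays. When only probe sets above the median mean signal were tested, 1789 of 22518 passed, a larger share than over all probe sets (1229 of 45037). The all-gene shares given here and below are not matched for signal. Over all probe sets 65.8% of those that passed were higher, and 56.4% with quantile normalization between the arrays. In such bulk samples fewer cells of a type and less RNA per cell cannot be told apart. The median log2 difference of the 41 genes was -0.01, beside 0.0014 over all genes. None reached 1.5-fold in all 3 pairs, beside 0.242% of all genes. The methods' t-test ignores the array numbers. By it, 1 of the 41 genes had an unadjusted p under 0.05 (*Itga8*), with the count over all genes not given here. After adjustment 0 of the 41 genes passed by that test, as did 0 of all 45037 probe sets. Without the 6 h array of replicate 3 limma called 3 genes (*Itga6*, *Itga8* and *Zyx*), where 773 of all 45037 probe sets passed. Without replicate 3 it called 4 (those 3 and *Itgb1*), where 1439 passed, against 1229 with all arrays. Without the replicate block, without replicate 1 and without replicate 2, 0 of 41 passed, where 1, 0 and 49 of all 45037 probe sets passed. The log2 differences in these fits were -0.43 to -0.39 for *Itga6*, 0.39 to 0.41 for *Itga8*, 0.22 to 0.26 for *Zyx* and 0.18 to 0.19 for *Itga1*.

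**Figure D1:**
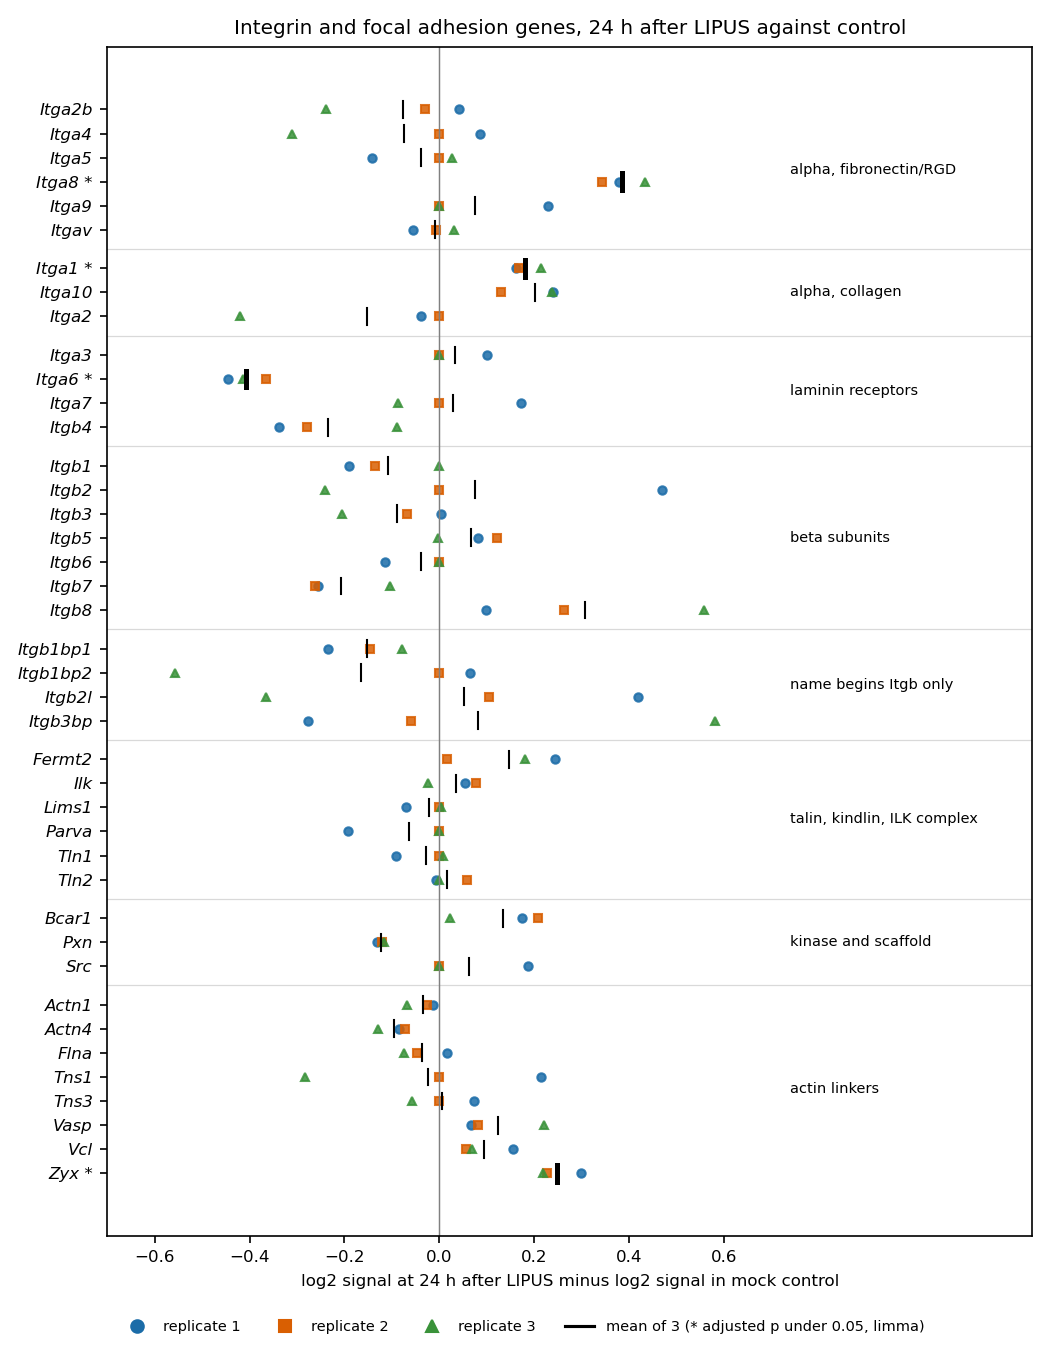
Log2 signal at 24 h after LIPUS minus log2 signal in the mock control of the same replicate (x axis) for the 41 genes, grouped by role. Points are the 3 replicates, bars their mean, and asterisks and thick bars mark an adjusted p under 0.05 (limma). *Itga6* lies left of 0 and *Itga8*, *Itga1* and *Zyx* right of 0 in every replicate, while many other genes have a point at exactly 0 in replicate 2 or 3.

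The signals of *Itga6* in control cells were 9.96, 10.22 and 9.82 in replicates 1, 2 and 3. They were 9.98, 10.27 and 9.77 at 6 h and 9.51, 9.86 and 9.41 at 24 h. Every 24 h array was below the control of its own number, although the 24 h value of replicate 2 reached above the control of replicate 3, so that the groups overlap when the numbers are ignored. The adjusted p was 0.00132 at 24 h against control. The log2 difference between 24 h and 6 h was -0.42 (adjusted p = 0.00157). The other probe set of *Itga6* had a log2 difference of -0.38 and did not pass (adjusted p = 0.0979).

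*Itga8* had control signals of 8.93, 9.23 and 8.98. At 6 h the signals were 9.01, 9.23 and 9.04, and at 24 h they were 9.31, 9.57 and 9.42. All 24 h arrays lay above all control and 6 h arrays, so that these groups do not overlap. The adjusted p was 0.00182 against control, and the log2 difference from 6 h was 0.34 (adjusted p = 0.00353). Its other probe set had a log2 difference of 0.15 and did not pass (adjusted p = 0.602).

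*Zyx* gave 8.50, 8.77 and 8.28 in control cells, 8.49, 8.69 and 8.37 at 6 h and 8.80, 8.999 and 8.50 at 24 h. The control and 24 h groups overlap, because replicate 3 was low throughout, and the pairs differed by 0.30, 0.23 and 0.22 on the log2 scale. The log2 difference was 0.25 (standard error 0.04, adjusted p = 0.0369), and that from 6 h to 24 h was 0.25 (adjusted p = 0.0447). Its other probe set had 0.10 (adjusted p = 0.615). *Itga1* gave 7.86, 8.23 and 8.03 in control cells and 8.02, 8.40 and 8.24 at 24 h, with 7.94, 8.25 and 8.14 at 6 h. Its groups overlap too, with a log2 difference of 0.18 (standard error 0.03, adjusted p = 0.0403). Its other probe set, with a mean signal of only 3.26, had 0.16 and did not pass (adjusted p = 0.684). That value came from replicate 1 alone (0.48), as the other pairs were equal. With quantile normalization *Zyx* and *Itga1* no longer passed (adjusted p = 0.0702 and 0.0771), and *Itga1* also failed without any one replicate and without the 6 h array of replicate 3 (adjusted p = 0.101).

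**Figure D2:**
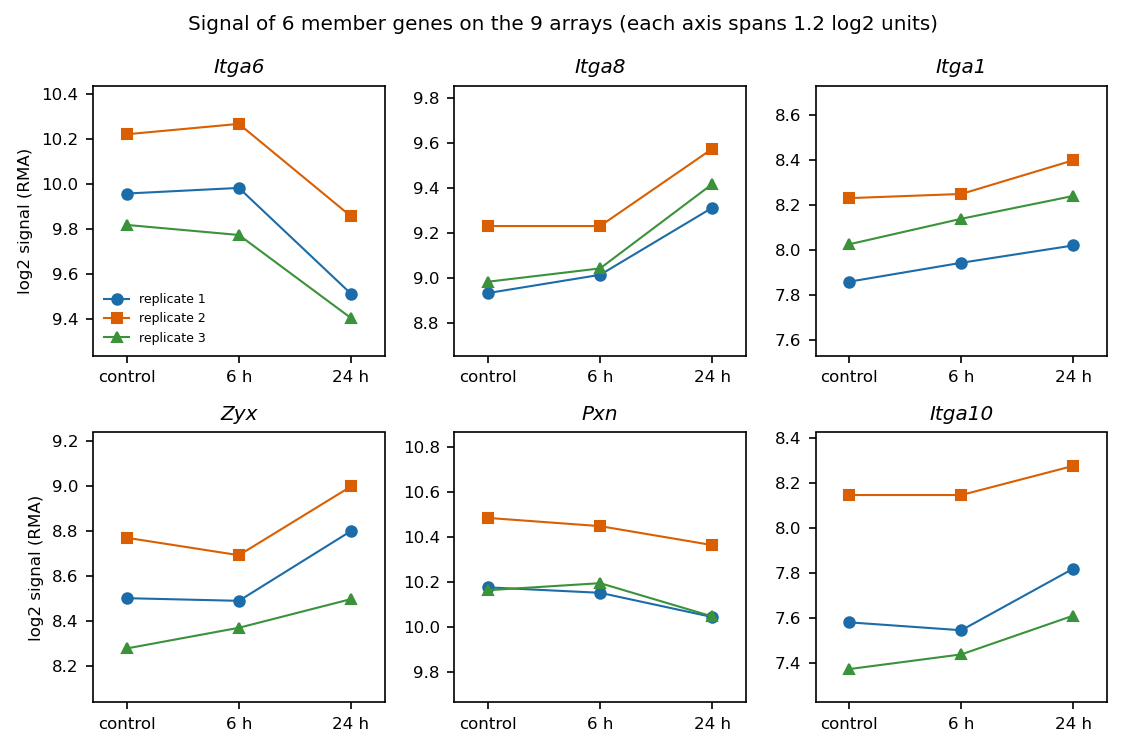
Log2 RMA signal (y axis, each panel spanning 1.2 units) in control cells and at 6 h and 24 h after LIPUS for the 6 genes with the smallest p at 24 h. Lines join arrays of 1 replicate. *Itga6* and *Itga8* are nearly level from control to 6 h and move by 24 h, and replicate 2 is the highest in every panel. Its array median was also the highest in each group, at 5.15.

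The stretches before the start of the 3 genes that rose are shown because these genes moved the same way. They are 250 bases each from the RefSeq promoter table (build GRCm38.p6), read 5′ to 3′ on the strand of the gene. *Vcl* is added as the plaque gene with matches to both searched motifs. The table holds 32 of the 41 genes, and *Itga6* is not among them. Capitals mark the CArG box, the motif bound by serum response factor, and GGAATG on either strand, a core motif of TEAD factors. The 2 motifs do not overlap in these stretches. They lie at chr2:12301945-12302194 (- strand) for *Itga8*, chr13:115101965-115102214 (- strand) for *Itga1*, chr6:42349578-42349827 (+ strand) for *Zyx* and chr14:20929148-20929397 (+ strand) for *Vcl*.
Itga8: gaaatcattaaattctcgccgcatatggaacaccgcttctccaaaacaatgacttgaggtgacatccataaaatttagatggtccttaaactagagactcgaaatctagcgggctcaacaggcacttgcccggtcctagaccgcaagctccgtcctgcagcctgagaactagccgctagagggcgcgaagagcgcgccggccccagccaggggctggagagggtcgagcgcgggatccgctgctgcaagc
Itga1: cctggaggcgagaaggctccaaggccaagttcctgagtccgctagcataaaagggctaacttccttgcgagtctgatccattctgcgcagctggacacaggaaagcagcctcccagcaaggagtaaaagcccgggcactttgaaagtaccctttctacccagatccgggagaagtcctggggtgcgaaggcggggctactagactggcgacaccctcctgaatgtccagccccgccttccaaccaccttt
Zyx: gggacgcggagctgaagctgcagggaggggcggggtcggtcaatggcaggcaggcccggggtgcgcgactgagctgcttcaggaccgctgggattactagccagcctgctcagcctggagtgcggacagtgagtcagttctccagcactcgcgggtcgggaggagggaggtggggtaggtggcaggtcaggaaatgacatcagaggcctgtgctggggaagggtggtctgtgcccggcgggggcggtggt
Vcl: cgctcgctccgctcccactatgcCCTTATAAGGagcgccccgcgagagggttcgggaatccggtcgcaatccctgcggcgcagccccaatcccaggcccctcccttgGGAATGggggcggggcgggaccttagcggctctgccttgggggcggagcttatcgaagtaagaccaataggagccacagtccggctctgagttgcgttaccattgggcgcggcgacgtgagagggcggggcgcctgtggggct
The first 3 hold neither motif in this window. *Vcl* holds a CArG box that begins 227 bases before the start, and a GGAATG. The 32 genes have 38 promoters in the table, of which 3 hold a CArG box (7.89%, in *Vcl*, *Fermt2* and *Itgb6*) and 5 hold GGAATG (13.2%). Of all 32851 promoters 1.47% and 12.6% hold these motifs, and the share with GGAATG is near that of all promoters. The stretches of *Itga8*, *Zyx* and *Itga1* contain 18, 15 and 10 CG dinucleotides, beside a median of 6 over all promoters.

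Of the 6 alpha chains that bind fibronectin or RGD proteins, *Itga8* rose and 5 did not pass. *Itga5*, the alpha chain of the classical fibronectin receptor, gave 6.31, 6.15 and 6.14 in control cells and 6.17, 6.15 and 6.17 at 24 h. The 2 groups overlap, and the log2 difference of -0.04 has a 95% interval from -0.16 to 0.08. *Itgav*, the alpha chain of vitronectin receptors, gave 12.01, 12.12 and 11.68 in control cells and 11.95, 12.12 and 11.71 at 24 h. Its log2 difference was -0.01 (95% interval -0.07 to 0.06). *Itga9*, *Itga2b* and *Itga4* had 0.08, -0.08 and -0.07, and *Itga4* lay below the median signal of the array on all 9 arrays.

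Of the 3 measured alpha chains that bind collagen, *Itga1* rose and *Itga10*, a collagen receptor chain of cartilage, came near the threshold. *Itga10* gave 7.58, 8.15 and 7.37 in control cells and 7.82, 8.28 and 7.61 at 24 h. It was higher in 3 of 3 pairs, with a log2 difference of 0.20 (adjusted p = 0.0583). *Itga2* had -0.15, of which replicate 3 gave -0.42 and replicate 2 gave 0.

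Among the laminin receptor chains *Itga6* fell and 3 others did not pass. *Itgb4*, which pairs with *Itga6* in hemidesmosomes, gave 6.59, 6.70 and 6.07 in control cells and 6.25, 6.42 and 5.98 at 24 h. It was lower in 3 of 3 pairs, with a log2 difference of -0.24 (95% interval -0.41 to -0.06, adjusted p = 0.23). *Itga3* and *Itga7* had 0.03 and 0.03. Epithelial cells also carry the *Itga6* and *Itgb4* receptor. Of 6 epithelial markers 2 fell at 24 h, *Krt14* by 0.98 and *Cdh1* by 0.75 on the log2 scale, beside 1.57% of all genes that fell. The other markers did not pass, and *Epcam* had 0.03. The median pair difference of the 6 markers was -0.15, -0.01 and -0.37 in replicates 1, 2 and 3. The study had listed *Krt14* and *Cdh1* from these arrays as lower, so their direction is not independent evidence. The summed linear signal of these 6 genes was 1123 to 1361 in control cells, 1116 to 1345 at 6 h and 690 to 884 at 24 h. Their part in the fall of *Itga6* was not tested.

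None of the 7 further beta chains passed. *Itgb1*, the common beta chain that pairs with most alpha chains, gave 10.42, 10.57 and 9.91 in control cells and 10.23, 10.44 and 9.91 at 24 h. The log2 difference was -0.11 (adjusted p = 0.275), and replicate 3 had the same value in both. Another of its 6 probe sets did pass, as did 2.73% of all probe sets, at -0.15 (pairs -0.10, -0.17 and -0.20, adjusted p = 0.0348). *Itgb5* and *Itgb3*, which pair with *Itgav*, had 0.07 (95% interval 0.003 to 0.13) and -0.09 (-0.19 to 0.01).

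*Itgb8*, another partner of *Itgav* that takes part in activating latent TGF-β, was the beta chain with the highest value. It gave 8.44, 8.61 and 7.64 in control cells and 8.53, 8.87 and 8.20 at 24 h. The pairs differed by 0.10, 0.26 and 0.56 and were all higher, with a mean of 0.31 (standard error 0.09, adjusted p = 0.204). *Itgb7*, a beta chain of lymphocytes, gave 6.08, 6.27 and 6.28 in control cells and 5.83, 6.01 and 6.18 at 24 h. It was lower in 3 of 3 pairs, at -0.21 (adjusted p = 0.202). *Itgb2*, the beta chain of leukocytes, and *Itgb6*, that of epithelia, lay below the array median on all 9 arrays, as did *Itga4*, *Itga7* and *Itgb1bp2*. Of 5 measured osteoblast markers, *Dmp1*, an osteocyte matrix protein, rose by 1.43 at 24 h, a gene that the study had also listed from these arrays. No other of the 5 passed (20% called, beside 4.14% of all genes). Their log2 differences ran from -0.06 to 1.43 with a median of 0.28. By limma 4 of the 5 had an unadjusted p under 0.05, beside 3085 of all 18193 genes. The summed linear signal of the 5 genes was 5738 to 7645 in control cells and 6213 to 8248 at 24 h. The labelled cell type carried *Col1a1* at signals whose log2 difference was 0.07 (adjusted p = 0.259), and of 6 haematopoietic markers 4 lay below the array median on all 9 arrays and 0 changed at 24 h. Of 5 endothelial markers 4 lay below it and 0 changed, beside the 4.14% of all genes that passed at 24 h.

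The 4 genes with an Itgb name alone did not pass. *Itgb1bp1*, which encodes a regulator that binds the beta 1 tail, gave 9.24, 9.35 and 8.84 in control cells and 9.004, 9.20 and 8.76 at 24 h. It was lower in 3 of 3 pairs, at -0.15 (adjusted p = 0.196). *Itgb3bp*, which encodes a protein of the centromere, moved by -0.28, -0.06 and 0.58 in replicates 1, 2 and 3 and had a mean of 0.08 with a standard error of 0.15. *Itgb1bp2* and *Itgb2l* had -0.16 and 0.05.

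None of the 6 proteins that activate or occupy the integrin tail passed. *Tln1* and *Tln2*, which encode the talins, had log2 differences of -0.03 (95% interval -0.11 to 0.06) and 0.02 (-0.08 to 0.11). *Fermt2*, which encodes kindlin-2, gave 11.06, 11.16 and 10.79 in control cells and 11.31, 11.17 and 10.97 at 24 h. It had 0.15 (standard error 0.04, adjusted p = 0.197), and the pair of replicate 2 contributed 0.02. *Ilk*, *Parva* and *Lims1*, whose products form the complex of integrin-linked kinase, parvin and PINCH, had 0.04, -0.06 and -0.02. *Parva* had the same value at control and 24 h in both replicate 2 and replicate 3.

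The 3 measured kinase and scaffold genes did not pass. *Pxn*, which encodes paxillin, gave 10.18, 10.48 and 10.16 in control cells and 10.04, 10.36 and 10.05 at 24 h. The 3 pairs were close to each other at -0.13, -0.12 and -0.12, and the log2 difference of -0.12 (standard error 0.02) lay just outside the threshold (adjusted p = 0.0517). With quantile normalization it passed (adjusted p = 0.0447). *Bcar1*, which encodes the scaffold p130Cas, had 0.13 (adjusted p = 0.271). *Src* had 0.06, which came from replicate 1 alone, as the other two pairs were equal.

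Of 8 genes that link the plaque to actin, *Zyx* rose and 7 did not pass. *Vasp*, which encodes a partner of zyxin in actin assembly, gave 9.94, 10.06 and 9.60 in control cells and 10.01, 10.14 and 9.82 at 24 h. It was higher in 3 of 3 pairs, at 0.12 (adjusted p = 0.203). *Vcl*, which encodes vinculin, gave 11.92, 12.11 and 11.75 in control cells and 12.08, 12.17 and 11.82 at 24 h, also higher in 3 of 3 pairs, at 0.09 (adjusted p = 0.161). *Actn4*, which encodes an actin crosslinker, gave 11.45, 11.59 and 11.29 in control cells and 11.36, 11.52 and 11.16 at 24 h. It was lower in 3 of 3 pairs, at -0.10 (adjusted p = 0.132). *Actn1*, *Flna* and *Tns3* had -0.04, -0.04 and 0.01 with standard errors of 0.02, 0.04 and 0.03. *Tns1* had -0.02, between 0.21 in replicate 1 and -0.28 in replicate 3.

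Over the 37 genes that did not pass, log2 differences ran from -0.24 for *Itgb4* to 0.31 for *Itgb8*, and 25 of them were within 0.1 of zero. Their 95% intervals extended by a median of 0.11 to each side, and by 0.37 for the least precise. Over all genes, passing or not, the median absolute log2 difference was 0.062. The same sign in all 3 pairs was seen for 16 of 41 genes (39.0%), beside 22.7% of all genes. Of 27 genes with more than 1 probe set, 5 (18.5%) had a probe set that passed, beside 7.29% of all 9010 such genes, with the number of probe sets per gene not matched. None of the 27 had all probe sets pass, and 11 had the same sign at every probe set. Neither of these counts has a share over all such genes beside it, so neither is read as particular to the 27.

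**Figure D3:**
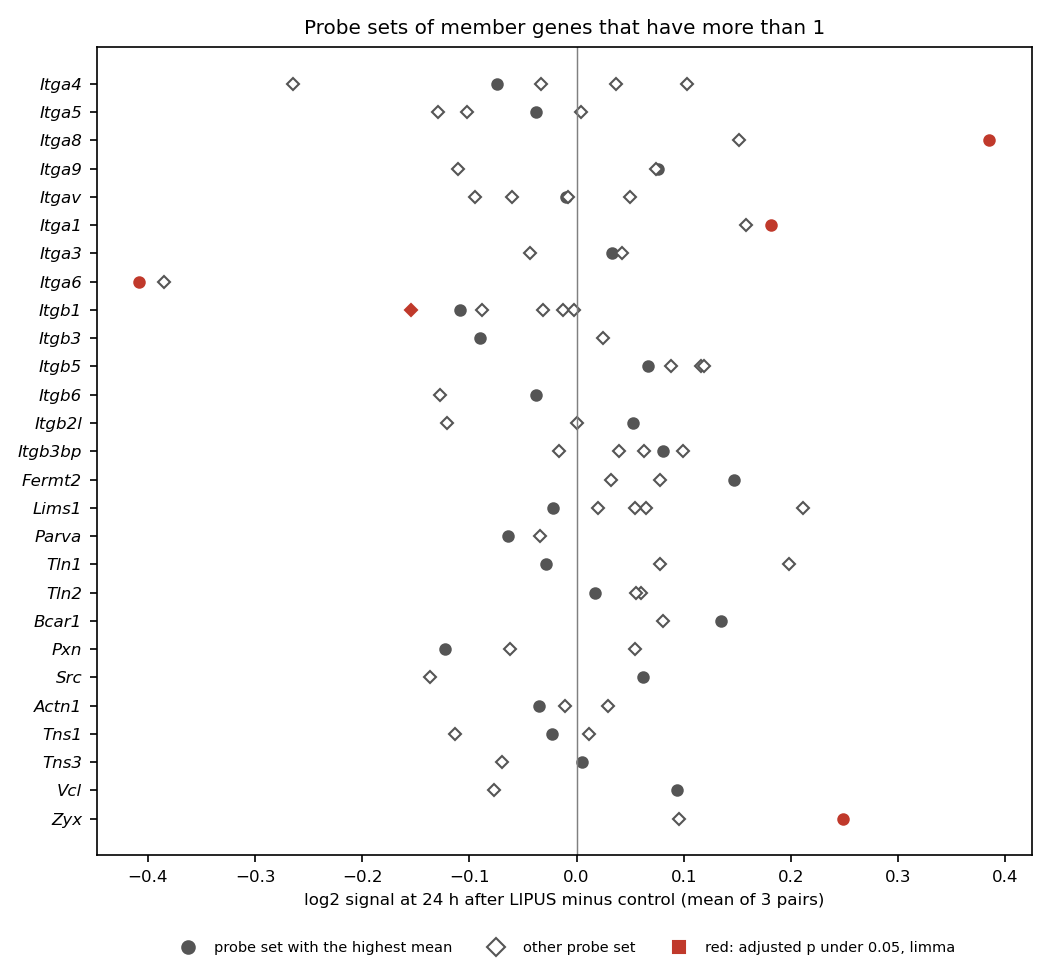
Mean log2 difference between 24 h and control (x axis) for every probe set of the 27 genes with more than 1. Circles are the probe sets with the highest mean, diamonds the others, and red marks an adjusted p under 0.05 (limma). Both probe sets of *Itga6* lie near -0.4, while the second probe sets of *Itga8* and *Zyx* lie nearer to 0 than the first.

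At 6 h after LIPUS, 0 of 41 genes passed, as did 0% of all genes and probe sets with limma. The smallest adjusted p among the 41 was 0.959. By limma 2 of the 41 had an unadjusted p under 0.05, beside 691 of all 18193 genes. The methods' t-test gave 0 of the 41 genes before adjustment, with the count over all genes not given here, and 0 after it. Log2 differences ran from -0.21 for *Itga4* to 0.22 for *Itga7*, both of low signal, and 34 of 41 were within 0.1 of zero. The median absolute log2 difference at 6 h was 0.038 over the 41 genes, beside 0.041 over all genes. *Itga6* and *Zyx* had 0.01 and 0.00 at this time, and *Itga8* and *Itga1* had 0.05 and 0.07. *Flna*, which encodes the actin crosslinker filamin A, gave 10.99, 11.20 and 10.63 at 6 h against 10.82, 11.01 and 10.63 in control cells. Its values were higher in replicates 1 and 2 and equal in replicate 3, with a log2 difference of 0.12 that did not pass.

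Between 6 h and 24 h, 3 of 41 genes changed, *Itga8* and *Zyx* upward and *Itga6* downward, which is 7.32% beside 3.24% of all genes (1.75% higher and 1.49% lower). This comparison shares its 24 h arrays with the comparison against control. *Itga1* had 0.11 between these times and did not pass (adjusted p = 0.248). *Itga10* and *Pxn* had 0.19 and -0.11 (adjusted p = 0.0839 and 0.0837). *Itgb4* had -0.30 (adjusted p = 0.142).

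Other genes of the adhesion system, in lists made apart from the 41, had members with larger changes at 24 h. Of 41 measured genes for other plaque proteins, 2 rose and 2 fell (9.76%, beside 4.14% of all genes), with a median log2 difference of 0.0029. *Fhl2*, which encodes a LIM protein that joins integrin tails and transcription, gave 9.03, 9.18 and 8.88 in control cells and 9.50, 9.60 and 9.34 at 24 h. All 24 h arrays were above all controls, at a log2 difference of 0.45 (adjusted p = 9.51e-04). *Nexn*, which encodes the actin-binding protein nexilin, rose by 0.42. *Tes*, which encodes testin, a zyxin-binding LIM protein, fell by 0.40 on the log2 scale (adjusted p = 0.00153). *Pdlim1*, which encodes a PDZ and LIM protein of stress fibres, fell by 0.26.

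Of 27 measured matrix ligands, 5 rose and 1 fell (22.2%, beside 4.14% of all genes), with a median log2 difference of 0.03. Without the 6 h array of replicate 3, 3 rose and 2 fell, and *Ccn1* and *Lama4* did not pass. In that fit 773 of all 45037 probe sets passed, against 1229 with all arrays. The study had listed *Thbs1*, *Fbn1* and *Tgfbi* of this list from the same arrays, so the direction of none of them is independent evidence. *Thbs1*, which encodes thrombospondin 1, had 0.90. *Npnt*, which encodes nephronectin, the ligand of the receptor that contains *Itga8*, gave 12.19, 12.38 and 12.10 in control cells and 12.61, 12.79 and 12.39 at 24 h. All 24 h arrays were above all controls, and its log2 difference was 0.37 (standard error 0.03, adjusted p = 0.00128). *Ccn2*, which encodes connective tissue growth factor, rose by 0.37 (adjusted p = 0.0027). *Tgfbi*, which encodes an integrin-binding matrix protein induced by TGF-β, fell by 0.66 on the log2 scale (adjusted p = 9.97e-04).

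Of 16 measured membrane partners of integrins, 2 rose and 2 fell (25%, beside 4.14% of all genes). The study had listed a probe set of *Ddr1* of this list from these arrays by its 1.5-fold rule. Here the *Ddr1* probe set with the highest mean had -0.24 and did not pass by limma. *Sdc2*, a heparan sulfate proteoglycan that assists adhesion, rose by 0.18, and *Cd44*, a hyaluronan receptor, rose by 0.16. *Lgals3*, a lectin that crosslinks surface glycoproteins, fell by 0.28 on the log2 scale, and *Cd47*, a thrombospondin receptor, fell by 0.13. Without the 6 h array of replicate 3 this list had 2 called genes, *Sdc2* and *Lgals3*, where 773 of all 45037 probe sets passed. Of 18 stress fibre genes, 3 rose and 0 fell (16.7%, beside 4.14% of all genes), with a median of -0.01. *Srf*, which encodes serum response factor, gave 8.68, 8.98 and 8.34 in control cells and 9.26, 9.60 and 8.97 at 24 h, at a log2 difference of 0.61 (adjusted p = 0.00525). *Cnn1*, which encodes calponin, rose by 0.29 and *Tpm1*, which encodes a tropomyosin, by 0.18. With quantile normalization *Srf* and *Tpm1* rose, *Cnn1* did not pass and *Rhoa*, which encodes a GTPase of stress fibre assembly, fell. Without the replicate block, without replicate 1 and without replicate 2 the 4 lists together had 0, 0 and 1 called genes (*Thbs1*), beside the 1, 0 and 49 of all 45037 probe sets.

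**Figure D4:**
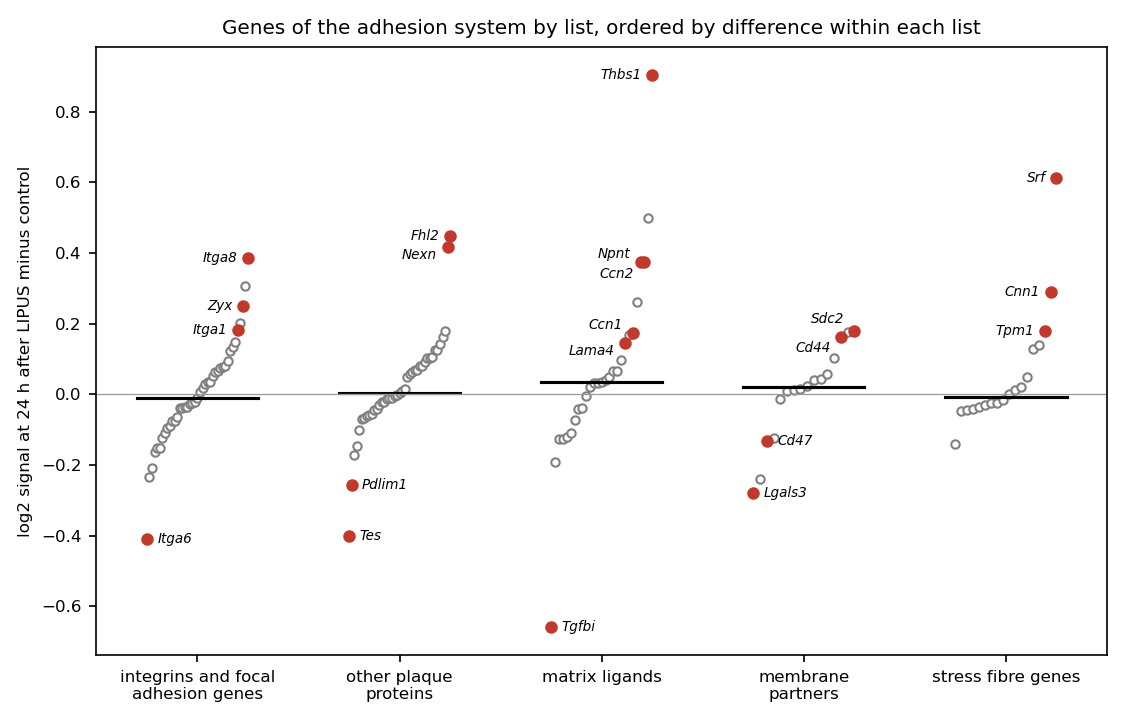
Mean log2 difference between 24 h and control (y axis) for the 41 integrin and focal adhesion genes and for 4 other lists of the adhesion system, ordered by value within each list. Red points are genes with an adjusted p under 0.05 (limma), open points did not pass, and black lines are the medians, which lie between -0.01 and 0.03 in the 5 lists.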

How the data were processed

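Transcript levels were measured on Affymetrix mouse arrays, 3 each for control, LIPUS 6 h and LIPUS 24 h. The deposited values are log2 signals that the authors computed by RMA, per the submitters' processing notes, with settings not given in the sources used here. Of the 45101 probe sets, 64 controls were not used. The annotation of the array gave 34945 probe sets 1 symbol, 932 several and 9160 none, and symbols were updated through gene identifiers.

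All 9 arrays entered a single limma 3.58.1 model (R 4.3.3, lmFit and eBayes with the variance trended on signal) that held group and replicate number, with 4 residual degrees of freedom. Benjamini-Hochberg adjustment covered all 45037 probe sets. The numbers were taken to pair the arrays because the deviations of same-numbered arrays from their group means correlated at 0.701 to 0.933. The 3 arrays per group limit the precision. The genes and lists were chosen with earlier results of these data known. Values in full were given to genes that passed in any comparison and then to those of smallest p at 24 h up to 12, and in each other list to up to 4 that passed. Additional genes were described to account for the whole set, after their values were seen. The procedure was tested on simulated data. Alternatives concerned the block, variance trend, arrays and replicates included, normalization, weights, probe sets and test.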

Additional observations from a re-analysis of the deposited data

Results flagged for a closer look

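The effects at 24 h and at 6 h, both taken against the control, differed for 15 of the genes named above, by the limma test of 24 h against 6 h. Of all genes 3.24% passed that test. These 15 had been named for passing at 24 h against control, which uses the same 24 h arrays. Their passing here is therefore not independent evidence. Among integrin and focal adhesion genes the log2 difference was -0.42 for *Itga6*, 0.34 for *Itga8* and 0.25 for *Zyx*. Among plaque proteins it was 0.47 for *Fhl2*, 0.28 for *Nexn* and -0.39 for *Tes*. Among ligands it was 0.76 for *Thbs1*, 0.39 for *Ccn2*, 0.33 for *Npnt* and -0.58 for *Tgfbi*. Among membrane partners it was 0.14 for *Sdc2* and -0.27 for *Lgals3*. Among stress fibre genes it was 0.54 for *Srf*, 0.33 for *Cnn1* and 0.21 for *Tpm1*. Adjusted p-values ran from 0.001 for *Fhl2* to 0.0447 for *Zyx*.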

How the results depend on the processing

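Of the 41 genes, 4 passed at 24 h against control and 3 at 24 h against 6 h. Over all 45037 probe sets 1229 and 909 passed. The counts of the 41 genes were 0 and 0 without the replicate block (1 and 0 of all probe sets), with only the arrays of the groups compared (5 and 8), by the methods' t-test after adjustment (0 and 0) and at 1.5-fold in all 3 pairs (59 and 52), so that the first 3 of these settings called few or no probe sets anywhere. They were 18 and 16 with array weights estimated by limma (9276 and 5482). Without the intensity trend the count at 24 h against control was 2 (522 of all probe sets). Among probe sets above the median mean signal the count at 24 h against 6 h was 5 (1282 of all 22518 such probe sets). It was also 5 with quantile normalization without replicate 3 (2147 of all 45037). That last setting was chosen after seeing the data, as was leaving out the 6 h array of replicate 3. Leaving out 1 replicate gave 0 to 4 genes in each of these comparisons, with 0 without replicate 1 (0 and 0 of all probe sets) or replicate 2 (49 and 44). Without replicate 3, 1439 and 1498 of all probe sets passed. At 6 h against control the count was 0 under all alternatives run. Without the replicate block, where 1 of all probe sets passed, the counts were also 0 for plaque proteins, ligands, membrane partners and stress fibre genes. Leaving out 1 replicate gave 0 to 4, 0 to 7, 0 to 4 and 0 to 4 genes in these lists, where 0 to 1439 of all probe sets passed. Without the 6 h array of replicate 3 the membrane partners had 2, where 773 of all probe sets passed. The median log2 difference of the 41 genes ran from -0.0116 to 0.0323 at 24 h, and from 0.00197 to 0.0355 at 6 h, when 1 replicate was left out. *Itga6* and *Itga8* kept their call at 24 h against control under 8 of 14 alternatives, *Zyx* under 5 and *Itga1* under 2, and 0 changed sign. The log2 difference of *Itga6* ran from -0.43 to -0.37 and that of *Itga8* from 0.27 to 0.41. Over all probe sets quantile normalization moved the share of higher calls from 65.8% to 56.4%. The cause of these differences was not tested, beyond the fewer arrays that some fits hold. With 3 arrays per group, small differences of dim probe sets were not detectable.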
